A study of Mus musculus with 6 samples.

Results

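The genes described here are 51 genes of the interferon response and of antigen processing in the mouse, chosen by name: sensors of foreign nucleic acid, interferon regulatory factors and Stat2, antiviral effectors, enzymes of ISG15, ubiquitin and ADP-ribose, interferon-induced GTPases, and the immunoproteasome with the peptide loading machinery. Of the 51 genes, 38 had a probe set that the annotation pairs with them alone and were tested, among 16797 genes in all. Irf5, Oasl1, Oasl2, Mx1, Ifi44, Trim21, Nmi, Gbp3, Gbp7 and Iigp1 had no such probe set in the annotation used, Isg15, Gbp2 and Igtp lay only on probe sets of several genes, and these 13 genes were not analysed here.

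Total RNA of NIH3T3 cells, an immortalized mouse embryonic fibroblast line that the study uses as its Normal cells, was hybridized to 6 Affymetrix gene arrays. The cells were plated in 25 mM glucose, were moved after 16 h to medium with 1 mM glucose and were harvested after a further 72 h. The 3 arrays of group N were of cells without forskolin (FSK), a plant compound that stimulates adenylate cyclase and through cAMP turns on PKA, and the 3 arrays of group NF were of cells given 10 μM FSK at 24 h and at 48 h. The comparison of NF with N asks what FSK does to transcripts of normal fibroblasts that have used up their glucose. Both groups share the low glucose, no array of cells kept in high glucose enters the comparison, and all arrays are of 1 cell line. The labels call the arrays of a group biological replicates.

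Interferons are secreted proteins that cells release after they detect viral or displaced nucleic acid. Type I interferons bind a receptor that activates JAK kinases, which phosphorylate STAT2. With IRF9, STAT2 enters a complex that binds the interferon-stimulated response element (ISRE) in promoters and switches on the interferon-stimulated genes. Interferon gamma acts on another element, the gamma-activated site (GAS), and raises the immunoproteasome and the transporters that load peptides onto MHC class I. Fibroblasts carry the receptors, and many of the sensors and effectors are kept at a low level before any infection.

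Since many of these genes are known to be switched on through the ISRE, the RefSeq promoter windows of GRCm38.p6, from 250 bases before to 50 bases after each transcription start, were searched for the letters of its core. This core was taken as GAAA and GAAA with 2 bases of any kind between them, on either strand, so that it reads TTTC and TTTC on the other strand, and matches were allowed to overlap. A window was given for 40 of the 51 genes. The core was present in 16 of these 40 genes, 40% of them, and in 1079 of 27025 genes in the whole table, 3.99%. The stretches of 30 bases below hold the match nearest to the start in genes on which the results turn, in the 5′ to 3′ direction of each gene, and the capitals mark the GAAA or TTTC letters of the core. Ddx58 and Ifitm3 rose in NF, Stat2 and Ifit1 had higher values on every NF array without passing the test, and Ifit3 and Oas1a had lower means in NF.

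Ddx58: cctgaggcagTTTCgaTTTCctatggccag
Ifitm3: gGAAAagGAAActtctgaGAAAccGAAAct
Stat2: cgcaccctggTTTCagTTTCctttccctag
Ifit1: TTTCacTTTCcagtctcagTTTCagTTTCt
Ifit3: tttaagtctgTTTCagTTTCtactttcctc
Oas1a: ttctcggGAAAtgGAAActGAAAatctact

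The stretch of Ddx58 lies at chr4:40239804-40239833 on the minus strand and that of Ifitm3 at chr7:141010714-141010743 on the minus strand. The others are at chr10:128270266-128270295 (Stat2, plus strand), chr19:34640785-34640814 (Ifit1, plus strand), chr19:34583397-34583426 (Ifit3, plus strand) and chr5:120907523-120907552 (Oas1a, minus strand). In Ddx58 and Ifitm3 the match nearest to the start began at base 3 of the transcript, and in Stat2 it began at base -222. Among the 7 genes that rose in NF, 5 had a window and 2 of these held the core. Irf7, Samd9l and Xaf1 had a window without these letters, and Rtp4 and Usp18 had no window. Among the 7 genes with a window and a lower mean in NF, 2 held it. For GAS the letters TTC and GAA with 3 bases between them, which read the same on both strands, were present in 11 of the 40 genes (27.5%), against 9.55% of all genes. They were found in 1 of the 5 genes that rose and in 5 of the 7 with a lower mean. For ISRE and GAS alike, a gene counted if any of its windows held the letters. The 5 genes that rose had 5 windows and the 7 with a lower mean had 11, so their counts are not on equal terms. A match to such short letters is a description of the sequence and not a measured binding site.

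**Figure D1:**
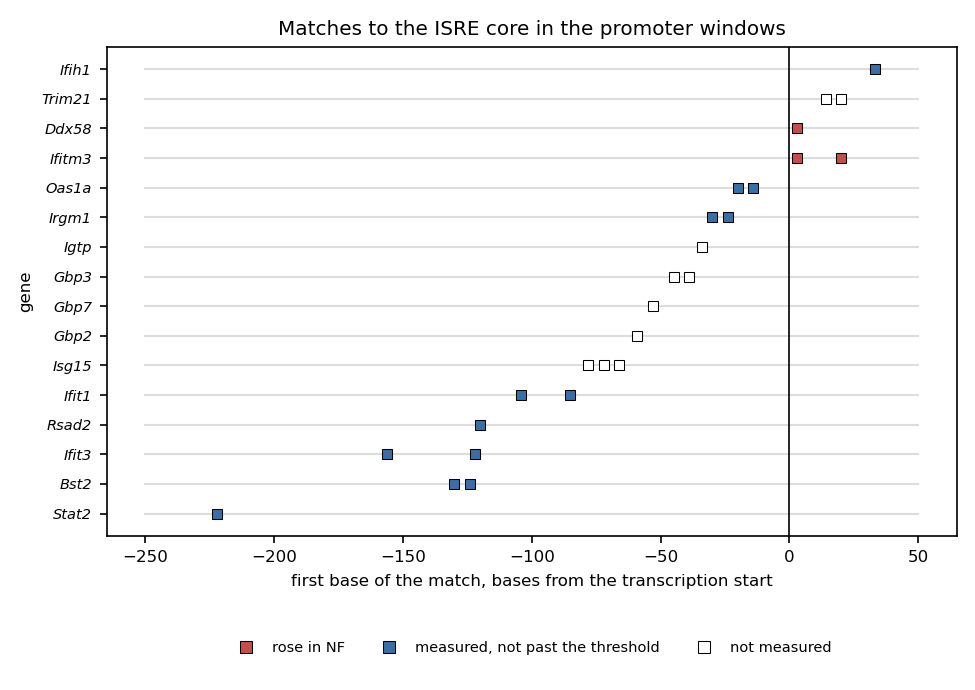
Matches to the ISRE core in the promoter windows of the 16 genes that hold it, with the first base of each match in bases from the transcription start on the x axis and 1 line per gene. Squares are red for genes that rose in NF, blue for measured genes not past the threshold and white for genes not measured. The 2 red genes, Ddx58 and Ifitm3, have their first match at base 3, just after the start, and the matches of most other genes lie before it.

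FSK raised 7 of the 38 measured genes, and none of them fell (limma, Benjamini-Hochberg adjusted p under 0.05). They were Usp18, Ddx58, Xaf1, Rtp4, Ifitm3, Samd9l and Irf7, with values 1.98-fold to 3.01-fold higher in NF than in N. These 7 genes are 18.4% of those measured, and 1.83% of all genes tested were called higher and 0.72% lower. At an unadjusted p under 0.05, 19 of the 38 genes (50%) were higher and 2 were lower, against 8.33% and 5.49% of all genes. The median log2 change, NF minus N, was 0.51 over the 38 genes and -0.026 over all genes. The 31 other genes did not pass the adjusted threshold. The genes were put together as a group with results of these data known, so these shares describe the group and do not test it.

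The 3 NF arrays lay above the 3 N arrays without overlap in 20 of the 38 genes (52.6%), against 10.5% of all genes. They lay below them in 2 genes, Ifit2 and Oas1a, against 9.7% of all genes, and the groups overlapped in 16. A mean difference of at least 2-fold, which carries no test, was found in 8 genes upwards and in 0 downwards, against 1.93% and 0.804% of all genes. Stat2 and Ifit1 exceeded 2-fold without passing the test, and Xaf1, at 1.98-fold, passed the test below 2-fold. Many of the genes were dim: in 14 of the 38 the mean value over the 6 arrays was below 3.70, the median over all probe sets tested. Of the 7 genes that rose, Irf7, Rtp4 and Usp18 lay below this value. With all dim probe sets left out of the test, 4 genes were called, Ddx58, Ifitm3, Samd9l and Xaf1, where 4.32% of the remaining genes were called higher. The filter used the mean over the 6 arrays, so a higher NF group could carry a gene past it. This was so for Samd9l, with a mean of 3.56 in N and 4.57 in NF.

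The number of calls, over all genes as among the 38, depended on single arrays. Without NF replicate 1 and without NF replicate 3, 1 and 2 of the 16797 genes were called higher in limma and none of the 38, of which 15 and 12 were higher at an unadjusted p under 0.05. Without N replicate 3 and without NF replicate 2 only Usp18 of the 38 passed, where 0.625% and 0.899% of all genes were called higher. Without N replicate 2 Ddx58, Samd9l and Usp18 passed (1.62% of all genes). Without N replicate 1 all 7 genes kept their call, and Ifit1 and Stat2 were added (2.93% of all genes). The log2 changes of the 7 genes moved less than the calls and lay between 0.82, for Irf7 without NF replicate 3, and 1.93, for Rtp4 without NF replicate 1, whichever array was left out. The study's own analysis of differential expression used limma, while its statistics section names Student's t-test. Run per gene on the same values, the t-test called 1 gene in all, higher, and none of the 38 after adjustment. Unadjusted, it called 14 of the 38 genes higher and 1 lower, against 1000 (5.95%) and 861 of all genes.

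**Figure D2:**
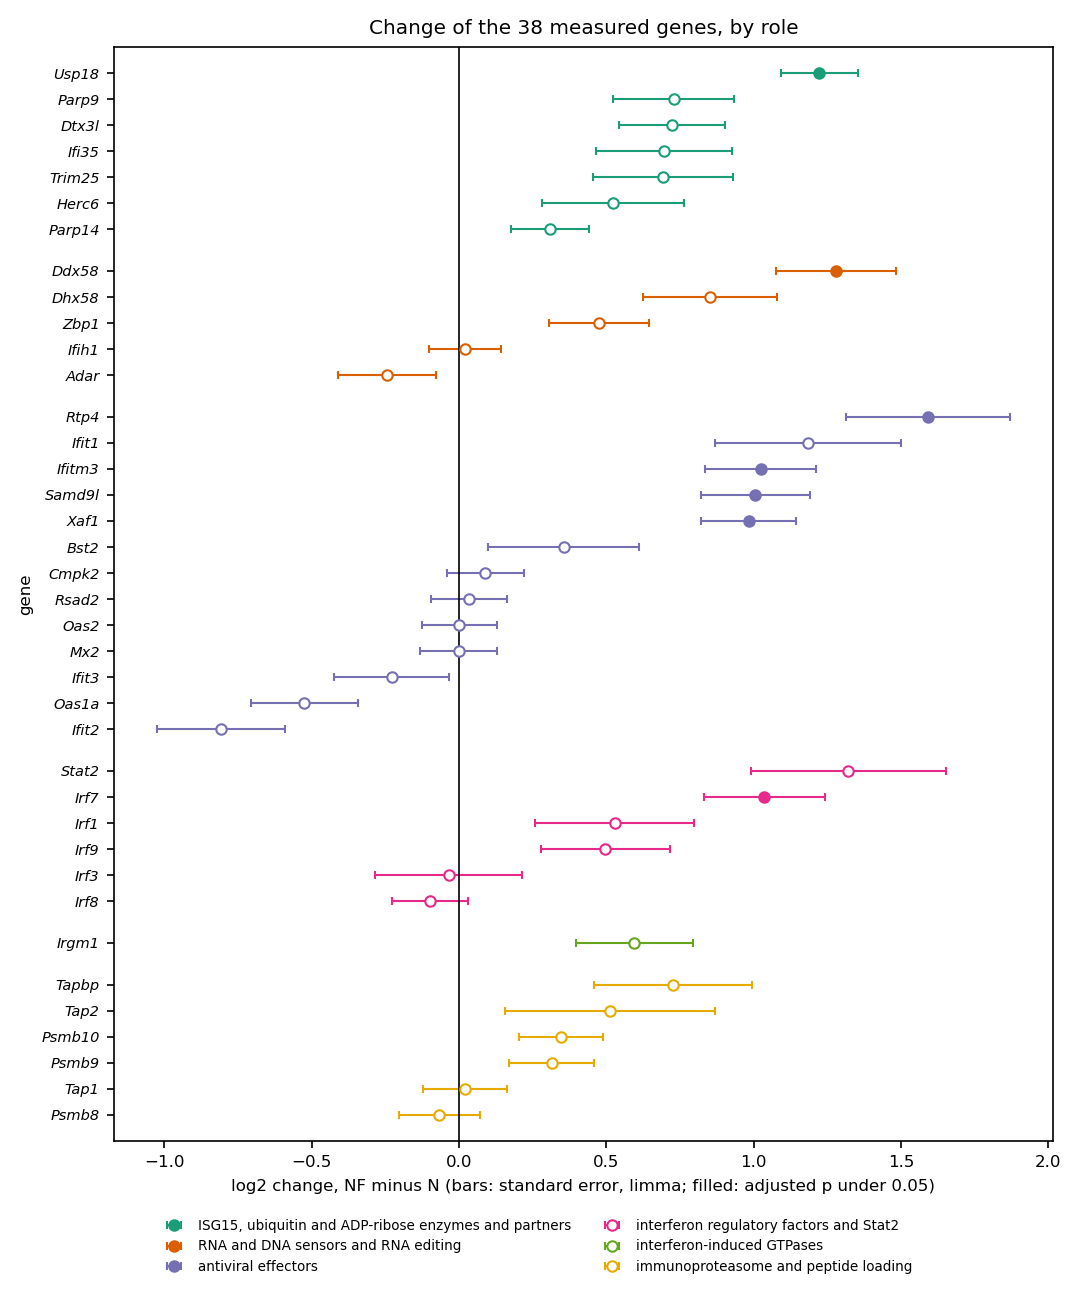
Log2 change, NF minus N, of each of the 38 measured genes with its standard error from limma, grouped by role, with filled circles for an adjusted p under 0.05. All 7 filled circles lie to the right of 0, between 0.98 and 1.59, and Ifit2 is farthest to the left at -0.81.

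Of the nucleic acid sensors, Ddx58 rose. It encodes RIG-I, a helicase that recognizes RNA with a triphosphate end and starts interferon production. Its log2 values were 6.24, 6.98 and 6.76 on the N arrays and 7.91, 7.79 and 8.12 on the NF arrays. All NF arrays were above all N arrays, and the change was 1.28 ± 0.20 (SE), 2.43-fold (limma, adjusted p = 0.024). Dhx58, which encodes LGP2, a helicase that modulates RIG-I and MDA5, was 0.85 higher on the log2 scale with no overlap of the groups and did not pass the test (adjusted p = 0.12). Zbp1, a sensor of nucleic acid in the Z form, differed by 0.47 (adjusted p = 0.26), also with no overlap. Ifih1, which encodes MDA5, the sensor of long double-stranded RNA, was below 3.70 on all arrays and differed by 0.021, with a 95% interval from -0.26 to 0.30. Adar, which edits adenosine to inosine in double-stranded RNA, differed by -0.24 (adjusted p = 0.61), and by -0.38 without N replicate 1.

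Among the interferon regulatory factors Irf7 rose. Irf7 is the factor that amplifies the transcription of interferon alpha genes after a first signal. Its log2 values were 2.86, 2.63 and 2.78 in N and 3.42, 3.73 and 4.22 in NF. The NF arrays were all higher but spread more widely, and the change was 1.04 ± 0.20 (SE; limma, adjusted p = 0.045). Irf1, an activator that responds to interferon gamma, differed by 0.53 (adjusted p = 0.47), while Irf3, the factor that first induces interferon beta, differed by -0.035 and Irf8, a factor of myeloid cells, by -0.099. For these 3 genes the groups overlapped, and without N replicate 1 the differences were 0.21, -0.34 and -0.032.

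Stat2 and Irf9 act together in the complex that binds the ISRE. Stat2 had log2 values of 4.81, 5.96 and 6.14 in N and 6.88, 6.76 and 7.23 in NF. The groups did not overlap, but N replicate 1 lay far below the other N arrays. With all arrays the change of Stat2 was 1.32 ± 0.33 (SE) and did not pass the test (limma, adjusted p = 0.096), and without N replicate 1 it was 0.91 and passed (adjusted p = 0.016). Irf9 had log2 values of 4.10, 4.19 and 4.66 in N and 4.66, 4.57 and 5.21 in NF. The groups overlapped, and the difference was 0.50 (adjusted p = 0.38).

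The antiviral effectors, the gene products that act on viruses or infected cells, were divided. Of the 13 measured, 4 rose (Rtp4, Ifitm3, Samd9l and Xaf1), against 1.83% of all genes. A higher mean in NF was found in 9, and the median log2 change was 0.089, against -0.026 over all genes.

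Rtp4, a chaperone of membrane receptors that also binds viral RNA, had the largest log2 change of the 38 genes. Its log2 values were 2.78, 3.08 and 2.74 in N and 3.77, 4.73 and 4.87 in NF. The NF arrays were all above the N arrays, with NF replicate 1 about a log2 unit below the other NF arrays, and the change was 1.59 ± 0.28 (SE), 3.01-fold (limma, adjusted p = 0.032).

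Ifitm3 encodes a membrane protein that blocks the entry of viruses from endosomes. Its log2 values were 10.12, 9.80 and 9.39 in N and 10.80, 10.76 and 10.83 in NF. The NF arrays lay close together and above the more scattered N arrays, and the change was 1.02 ± 0.19 (SE; limma, adjusted p = 0.036). Samd9l, which restricts viruses and acts on translation, had log2 values of 3.48, 3.96 and 3.26 in N and 4.63, 4.53 and 4.56 in NF. It had the same pattern of close NF arrays above scattered N arrays, with a change of 1.01 ± 0.19 (SE; adjusted p = 0.037). Xaf1, a partner of the apoptosis inhibitor XIAP that favours cell death, had log2 values of 4.25, 4.39 and 4.48 in N and 5.11, 5.35 and 5.63 in NF. All NF arrays were above all N arrays, and the change was 0.98 ± 0.16 (SE; adjusted p = 0.026).

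None of the Ifit genes, whose proteins bind the ends of viral RNA and hold back its translation, passed the test. Ifit1 had log2 values of 3.65, 3.47 and 2.97 in N and 3.82, 4.89 and 4.94 in NF. The groups did not overlap, although NF replicate 1 was only slightly above the highest N array, and the difference of 1.19 ± 0.32 (SE) did not pass the test (limma, adjusted p = 0.12). Without N replicate 1, the highest N array for Ifit1, the difference was 1.33 and passed (adjusted p = 0.049). With any other single array left out Ifit1 did not pass, at an adjusted p of 0.081 or more. Ifit2 had log2 values of 5.98, 6.37 and 5.57 in N and 5.22, 4.93 and 5.34 in NF. This was the largest downward difference of the 38 genes, -0.81 ± 0.22 (SE), with all NF arrays below all N arrays, and it did not pass the test (adjusted p = 0.12). Ifit3, which lies next to Ifit2 in the genome with no protein-coding gene between them, differed by -0.23 with overlapping groups.

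None of the other effectors passed the test. Oas1a, a synthetase of oligoadenylates that activate RNase L, had log2 values of 3.32, 3.03 and 2.67 in N and 2.53, 2.58 and 2.34 in NF. Its groups did not overlap, but all 6 values were below 3.70 and the difference of -0.52 did not pass the test (limma, adjusted p = 0.24). Oas2, of the same enzyme family, Mx2, a dynamin-like GTPase, Rsad2, which encodes viperin, and its neighbour Cmpk2, a mitochondrial nucleotide kinase, were also below 3.70 on all arrays and differed by 0.00099, -0.0014, 0.034 and 0.089 on the log2 scale. At values this low the arrays may fail to show a small change, which was not tested. Bst2, which encodes tetherin and holds budding viruses at the cell surface, differed by 0.36 with overlapping groups (adjusted p = 0.63), and by 0.13 without N replicate 1.

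**Figure D3:**
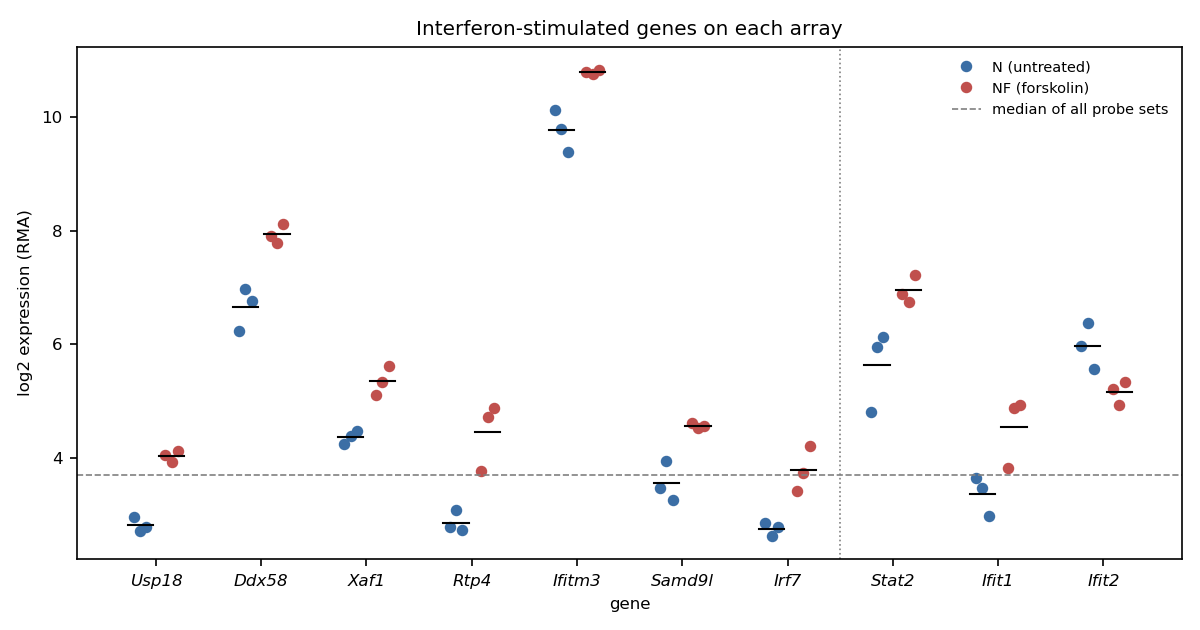
Log2 expression of the 7 genes that rose, left of the dotted line, and of Stat2, Ifit1 and Ifit2 on each of the 3 N arrays (blue) and 3 NF arrays (red), with black lines at the group means and a dashed line at 3.70, the median of all probe sets tested. NF lies above N without overlap for every gene but Ifit2, where it lies below.

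The 7 measured enzymes that attach or remove ISG15, ubiquitin and ADP-ribose, with their partners, all had a higher mean in NF. Of these genes 6 did so without overlap of the groups, against 10.5% of all genes. The median log2 change was 0.70, against -0.026 over all genes, and 1 gene, Usp18, rose, against 1.83% of all genes. On N replicate 1, 5 of these 7 genes had their lowest value, and without it the median was 0.48.

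Usp18 encodes the protease that removes ISG15 from proteins and that also damps signalling at the type I interferon receptor. Its log2 values were 2.96, 2.71 and 2.78 in N and 4.06, 3.93 and 4.13 in NF. Both groups were narrow, and the change of 1.22 ± 0.13 (SE), 2.33-fold, had the lowest p of the 38 genes (limma, adjusted p = 0.0084). All N values were below 3.70 and all NF values above it.

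Dtx3l, a ubiquitin ligase, and Parp9, the ADP-ribosyltransferase that works in a complex with it, are neighbours in the genome and had nearly equal differences. Dtx3l had log2 values of 3.82, 4.46 and 4.22 in N and 4.91, 4.76 and 5.0 in NF, a difference of 0.72 ± 0.18 (SE; limma, adjusted p = 0.094). Parp9 differed by 0.73 (adjusted p = 0.14), and neither gene's groups overlapped. Parp14, next to Dtx3l, encodes a further ADP-ribosyltransferase and differed by 0.31, with all values below 3.70. Ifi35, an interferon-induced protein that also acts as an alarm signal, differed by 0.70, Trim25, the ubiquitin ligase that activates RIG-I, by 0.69 and Herc6, the ligase for ISG15 in the mouse, by 0.52, none of them past the test. For Herc6 the groups overlapped. Without N replicate 1 the differences of Trim25 and Herc6 were 0.40 and 0.30.

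Of the interferon-induced GTPases, which attack the vacuoles of intracellular microbes, Irgm1 was the gene measured. It differed by 0.60 with no overlap and did not pass the test (limma, adjusted p = 0.22). The difference was 0.37 without N replicate 1.

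None of the 6 genes of the immunoproteasome and of peptide loading passed the adjusted threshold in limma. At an unadjusted p under 0.05, 2 were higher, Tapbp and Psmb10, against 8.33% of all genes. The median log2 change of the 6 genes was 0.33, and 0.20 without N replicate 1. The immunoproteasome is the form of the proteasome in which interferon gamma replaces the 3 catalytic subunits by Psmb8, Psmb9 and Psmb10, which changes the peptides made for MHC class I.

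Psmb8 had log2 values of 2.55, 2.32 and 2.58 in N and 2.52, 2.45 and 2.28 in NF. All 6 arrays were below 3.70 and the groups overlapped (difference -0.067). Psmb9 had log2 values of 4.41, 4.41 and 4.40 in N and 4.76, 4.48 and 4.93 in NF. The NF arrays were all above the N arrays, by 0.32 on average (limma, adjusted p = 0.40). Psmb10 had log2 values of 6.61, 6.41 and 6.34 in N and 6.81, 6.63 and 6.95 in NF. Its groups were close without overlapping, with a difference of 0.34 (adjusted p = 0.35). The constitutive subunits that these replace, Psmb5, Psmb6 and Psmb7, were bright and did not pass the test in any of the 3 genes. The lowest p was that of Psmb7, with a difference of 0.25 (adjusted p = 0.49), and Psmb5 differed by 0.19 (adjusted p = 0.77), and by -0.022 without N replicate 1.

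Tap1 and Tap2 encode the chains of the transporter that moves peptides into the endoplasmic reticulum. Tap1 had log2 values of 3.78, 4.07 and 4.06 in N and 3.86, 3.96 and 4.15 in NF. The groups overlapped, and the difference was 0.020, with a 95% interval from -0.31 to 0.35. Tap2 had log2 values of 4.71, 6.29 and 5.72 in N and 6.14, 5.86 and 6.26 in NF. N replicate 1 was more than a log2 unit below the other arrays, and the difference was 0.51 with all arrays (limma, adjusted p = 0.61) and 0.081 without N replicate 1. Tapbp encodes tapasin, which bridges the transporter and MHC class I, and had log2 values of 7.28, 8.38 and 8.19 in N and 8.64, 8.63 and 8.76 in NF. The groups did not overlap, N replicate 1 was again far below the rest, and the difference was 0.73 with all arrays (adjusted p = 0.27) and 0.39 without it. Psmb9, Tap1, Psmb8 and Tap2 stand next to each other in the genome in this order, and their log2 differences were 0.32, 0.020, -0.067 and 0.51.

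N replicate 1 stood apart from the other arrays, with an SD of its log2 values of 2.42 against 2.58 to 2.62 on the others. It held the lowest value of the 6 arrays in 17 of the 38 genes (44.7%) and in 33.3% of all genes. The mean deviation of the 38 genes from their own means was -0.40 on N replicate 1, -0.11 on N replicate 2 and -0.19 on N replicate 3, and 0.16, 0.18 and 0.35 on NF replicates 1, 2 and 3. Without N replicate 1 the median change of the 38 genes was 0.36 and that of all genes -0.021. Tap2, Stat2 and Tapbp lost most, while 5 of the 7 genes that rose, Usp18, Irf7, Rtp4, Samd9l and Xaf1, moved by less than 0.1. Of the other two, Ddx58 went from 1.28 to 1.07 without this array and Ifitm3 from 1.02 to 1.2.

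**Figure D4:**
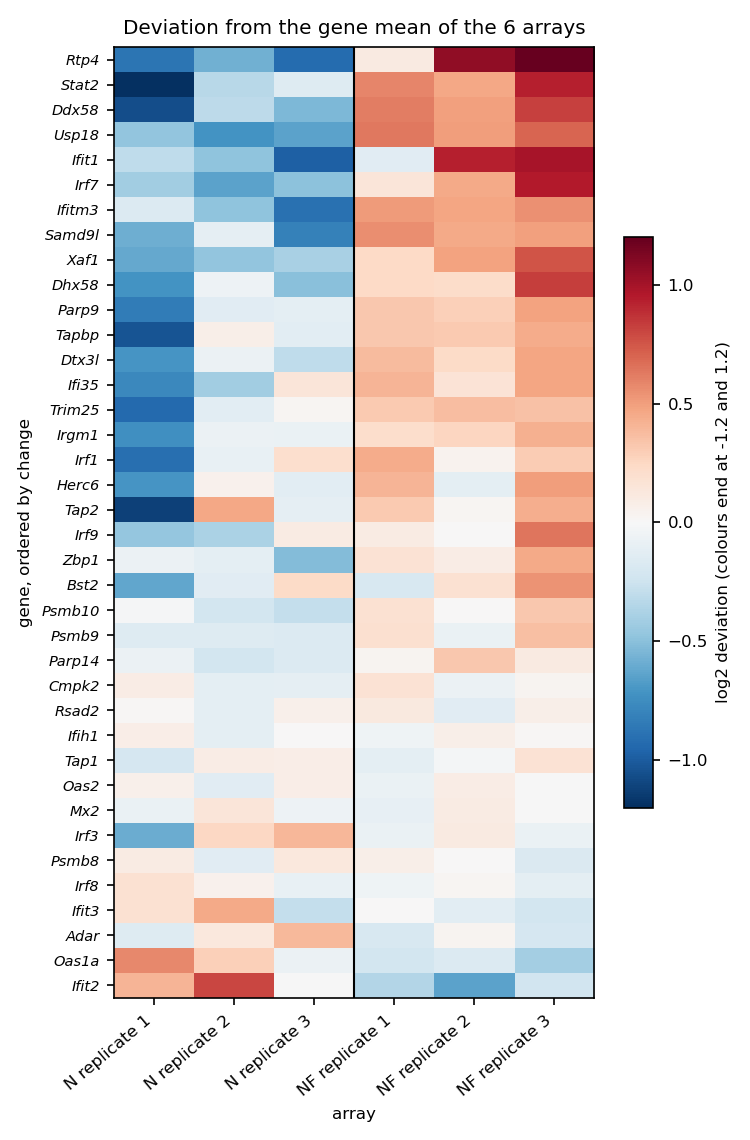
Deviation of each of the 38 genes from its mean over the 6 arrays, on the log2 scale (blue lower, red higher), with 1 column per array and genes ordered by the change, NF minus N. The upper rows are blue in N and red in NF, the rows from Cmpk2 to Irf8 are mostly pale, and Oas1a and Ifit2 at the bottom run the other way.

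**Figure D5:**
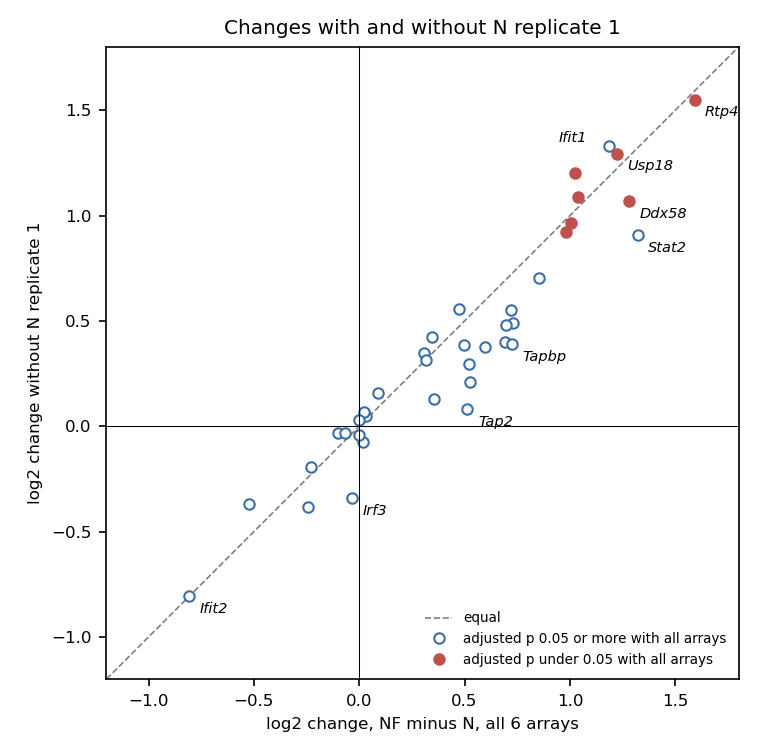
Log2 change of each of the 38 genes with all 6 arrays (x axis) and without N replicate 1 (y axis), with filled red circles for an adjusted p under 0.05 with all arrays and a dashed line where both are equal. Tap2, Tapbp and Stat2 lie below the line, at 0.081, 0.39 and 0.91 without N replicate 1, and Ifit1 and Usp18 lie above it.

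The genes upstream of the response and further genes of the same pathway were taken from lists of general knowledge. Of 10 genes for interferons and their receptors, none passed the adjusted threshold in limma. At an unadjusted p under 0.05, 1 of them, Ifngr2, was higher, against 8.33% of all genes. The ligand genes Ifnb1, Ifng, Ifnk and Ifne were below 3.70 on all 6 arrays. The receptor genes Ifngr2 and Ifnar2, which encode chains of the receptors for interferon gamma and for type I interferons, differed by 0.38 (adjusted p = 0.34) and 0.70 (adjusted p = 0.46). Without N replicate 1 the difference of Ifnar2 was 0.24.

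Of 10 measured genes of JAK-STAT signalling and its feedback, 1 rose, against 1.83% of all genes. It was Stat3, which transmits signals of the interleukin 6 family, with log2 values of 8.23, 9.05 and 9.07 in N and 10.03, 9.79 and 10.22 in NF (change 1.23 ± 0.24, SE; limma, adjusted p = 0.045). Jak2 was not analysed here. Of 9 measured adaptors and kinases of nucleic acid sensing, 1 rose, against 1.83% of all genes. It was Samhd1, which breaks down deoxynucleotides and so limits viral DNA synthesis. Its values were 7.26, 7.92 and 7.89 in N and 8.94, 8.63 and 9.26 in NF (1.25 ± 0.23, SE; adjusted p = 0.037). For both genes all NF arrays were above all N arrays.

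Of 21 further interferon-stimulated genes, 2 rose, against 1.83% of all genes. Eif2ak2 encodes PKR, the kinase that stops translation on double-stranded RNA, and had log2 values of 3.56, 3.84 and 3.62 in N and 4.72, 4.66 and 4.51 in NF (0.96 ± 0.13, SE; limma, adjusted p = 0.016). Ifitm2, a relative of Ifitm3, had log2 values of 10.02, 10.20 and 10.10 in N and 10.95, 10.88 and 11.02 in NF (0.84 ± 0.12, SE; adjusted p = 0.018). Its other probe sets differed by 0.70 (adjusted p = 0.036) and 0.84 (adjusted p = 0.17), and since the Ifitm genes are close in sequence, probes of one may also read another. The median log2 change of the 21 genes was 0.22, and 0.11 without N replicate 1. Of 10 measured genes of MHC class I and its loading none passed the adjusted threshold. At an unadjusted p under 0.05, 2 were higher, Psme1 and Nlrc5, and 1 was lower, Tapbpl, against 8.33% and 5.49% of all genes. The median log2 change was 0.058 with all arrays and -0.20 without N replicate 1. Nlrc5 had 19 probe sets and stood by the one with the lowest p, at 0.39, while its brightest probe set differed by -0.36. Without N replicate 1 another of its probe sets had the lowest p, at -0.49, and this value entered the median. The lowest p of the 10 genes was that of Tapbpl, a relative of tapasin, which differed by -0.63 with all NF arrays below N (limma, adjusted p = 0.18). Without N replicate 1 its adjusted p was 0.011. Psme1, a subunit of a proteasome activator, followed at 0.36 (adjusted p = 0.33).

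The fibroblast label was checked against markers. Of 10 measured fibroblast markers the values lay between 5.02 and 12.65, and 1, Col3a1, a fibrillar collagen, rose by 1.33 on the log2 scale (limma, adjusted p = 0.016). Of all genes, 1.83% were called higher. Since immune cells express many of the 38 genes strongly, markers of immune cells were read beside them. The values of 7 measured markers of T, B and NK cells lay between 1.99 and 3.54 and those of 7 dendritic cell markers between 2.19 and 3.33, and 6 of 7 macrophage and monocyte markers, with Ptprc and Cd68 among them, had means below 3.70. The exception was Cd14, a receptor for bacterial lipopolysaccharide, which rose by 1.05 (adjusted p = 0.044). The mean of the macrophage and monocyte markers, Cd14 included, was 3.15 to 3.24 on the N arrays and 3.24 to 3.41 on the NF arrays. The 6 others differed by -0.077 (Fcgr1) to 0.21 (Tyrobp) on the log2 scale, all with overlapping groups. The median change of the 7 was 0.0040. The part of these markers in the results was not tested. In RNA of a whole culture, a change in every cell and a larger change in some cells cannot be told apart, nor can fewer cells of a kind and less RNA in each.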

How the data were processed

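The deposited values were log2 expression values that the authors had computed with RMA in the R/Bioconductor package oligo, whose version is not given in the sources used here. RMA subtracts background, brings the arrays to a common distribution and combines the probes of each set. The deposited values still differed in spread, with an SD of 2.42 on N replicate 1 and of 2.58 to 2.62 on the others. Which arrays were normalized together is not given there, and the authors had removed sets of probes with no Entrez gene. No column was left without a sample (0 columns). Of 22035 probe sets, 18197 had 1 gene symbol in the platform annotation and were tested, while 1260 with several symbols and 2578 not listed were left out. 0 symbols needed an update.

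Groups NF and N were fitted in limma 3.58.1 (R 4.3.3; lmFit, eBayes) over all 18197 probe sets, with Benjamini-Hochberg adjustment and a threshold of 0.05. The probe set with the lowest p represents its gene. The study's methods also give limma for differential expression, with the lowest p kept for each gene. The precision is limited by the number of arrays. The gene groups, gene lists and named genes were chosen with earlier results of these data known. Values on each array are given for the genes past the threshold, the 8 with the lowest p, the largest rise and fall, and the genes of the ISRE-binding complex, immunoproteasome and peptide loading, and Ifit1 and Oas1a were added after their values were seen. Of each other list the genes past the threshold, or else the 2 with the lowest p, are named. The alternatives were quantile normalization, centring, a filter on dim probe sets, the brightest probe set and limma's trend and robust options. Further alternatives were Student's t-test from the study's statistics section, a replicate block and leaving out each array.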

Additional observations from a re-analysis of the deposited data

How the results depend on the processing

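With further quantile normalization of the arrays 497 genes were higher and 373 lower, in place of 307 and 121. With Student's t-test per gene in place of limma, 1 gene was higher and 0 were lower with adjustment, and 1000 and 861 without it. Among the 38 genes, 9 were higher after quantile normalization, the 7 called before and also Stat2 (limma, adjusted p = 0.019) and Trim25. Without dim probe sets 4 were higher. By the t-test 0 were higher with adjustment, and 14 were higher and 1 lower without it. Leaving out 1 array gave 1 to 492 genes higher and 0 to 430 lower, and 0 to 9 of the 38 higher.

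With the replicate number as a block (replicate block) 63 genes were higher and 17 lower, and 1 of the 38, Usp18, stayed past the threshold. The labels number the replicates in both groups, but same-numbered arrays did not deviate together (correlations of -0.0748, -0.0780 and -0.0736), so the numbers were not taken to pair the arrays.

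Differences near 0 changed sign. Under centring these were Ifih1 (-0.016), Oas2 (-0.036), Rsad2 (-0.0028) and Tap1 (-0.017), and under quantile normalization Mx2 (0.052), Psmb8 (0.0058) and Tap1 (-0.046). With 1 array left out, Ifih1 lay between -0.031 and 0.067, Irf3 between -0.34 and 0.16, Oas2 between -0.066 and 0.042, Rsad2 between -0.017 and 0.11, Mx2 between -0.051 and 0.072, Psmb8 between -0.15 and 0.0027, Tap1 between -0.074 and 0.084, and Psmb5 between -0.022 and 0.39. Over all alternatives, 481 of the values of single genes among the 38 kept direction and side of the threshold, 12 gained the call and 20 changed sign. Another 43 lost the call, all of them values of the 7 genes that rose, as the 31 other genes had none to lose. Each of the 38 genes had 1 probe set, so settings that changed only the test could not change its direction. The count of 481 is therefore no measure of how stable the 7 calls are. Apart from the settings above, the cause of these changes was not tested. Values below 3.70 may limit what can be seen for the dim genes, which was not tested.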
